A study of Mus musculus with 7 samples.

Results

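Bhlhe40, Bhlhe41 and Zbtb32 encode 3 transcriptional repressors of lymphocytes, and they are 3 of the 752 genes in the table that the authors deposited for B cells with and without Batf. They were found in that table by gene symbol. The mice, all on a C57BL/6J background, were 3 labelled Batf KO and 4 labelled wild type. Spleen B cells of both groups were taken on magnetic (MACS) columns. They then received 20 µg/mL of LPS, a component of bacterial membranes that signals through TLR4, together with 20 ng/mL of the cytokine IL-4 for 6 h, after which total RNA was sequenced, per the labels. Batf encodes an AP-1 family factor that pairs with JUN proteins and binds DNA together with IRF4 or IRF8. The sources used here do not give the Batf allele, the age or sex of the mice, or whether any library pools animals.

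BHLHE40 (also called DEC1) and BHLHE41 (DEC2) are paralogous basic helix-loop-helix proteins of the Hairy/Enhancer-of-split type. They bind class B E-boxes, recruit corepressors and damp the transcription that CLOCK and BMAL1 drive in the circadian clock. In B cells both have been tied to the self-renewing B1a lineage, and BHLHE40 limits the production of IL-10 by T cells. ZBTB32, a BTB domain zinc finger protein, is induced in activated lymphocytes, restrains T cell cytokine genes and memory B cell recall responses, and acts with BLIMP-1 (the product of Prdm1) to silence the MHC class II transactivator gene Ciita.

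Bhlhe40 (ENSMUSG00000030103) lies on chromosome 6 at 108660629 to 108666925 on the plus strand, and Bhlhe41 (ENSMUSG00000030256) on the same chromosome at 145858243 to 145865558 on the minus strand. Zbtb32 (ENSMUSG00000006310) lies on chromosome 7 at 30589681 to 30598909 on the minus strand. Positions are from GENCODE M21 on GRCm38, the assembly also called mm10. All 3 are protein-coding genes. The longest run of bases that the Bhlhe40 and Bhlhe41 transcripts have in common is 15, far shorter than either transcript (3113 and 6133 bases). An antisense gene, 0610040F04Rik, shares 118 exon bases with Bhlhe40, and Gm43909 on the opposite strand shares 1280 with Bhlhe41. The sources used here do not say whether strand was used in counting, so reads of these partners cannot be told apart from those of the 2 genes. No annotated gene overlaps Zbtb32.

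RefSeq promoter windows on GRCm38.p6 were found for Bhlhe41 and Zbtb32, and Bhlhe40 was not matched. Sequence is shown for these 2 genes because BHLHE40 and BHLHE41 themselves read the E-box CACGTG and because BATF binds AP-1 letters. Only bases ahead of each start site annotated in GENCODE are printed, and Zbtb32 is shown at the outer of its 2 windows. Capitals mark CACGTG and CCAAT (the letters of the NF-Y box), searched on both strands. The Bhlhe41 stretch is chr6:145865559-145865670 and the Zbtb32 stretch is chr7:30598910-30599159, both on the minus strand.
Bhlhe41: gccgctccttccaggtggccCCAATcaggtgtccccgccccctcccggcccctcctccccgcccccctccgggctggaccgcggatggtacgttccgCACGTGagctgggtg
Zbtb32: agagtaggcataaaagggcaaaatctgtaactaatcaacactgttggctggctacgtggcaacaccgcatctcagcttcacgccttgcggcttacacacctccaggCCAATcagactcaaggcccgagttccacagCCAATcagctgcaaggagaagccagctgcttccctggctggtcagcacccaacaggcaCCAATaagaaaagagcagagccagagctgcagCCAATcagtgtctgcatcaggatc
The Bhlhe41 window holds 1 CACGTG, beginning 153 bases before the RefSeq start site, as do 6.02% of all 32851 windows of 250 bases. The outer Zbtb32 window holds 4 CCAAT, beginning 144, 114, 56 and 24 bases before the start, and the inner window holds none. At least 1 CCAAT occurs in 33.8% of all windows, and 4 or more occur in 0.84%. The count of 4 is the number seen in the outer Zbtb32 window, so this share is a description only. The AP-1 letters TGANTCA, present in 6.75% of all windows, were found in neither gene's windows. These matches describe the letters alone.

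The targeted gene was checked first. Batf stood at 315, 307, 333 and 322 CPM (the read count relative to library size) in wild type replicates 1 to 4 and at 63.4, 70.3 and 65.8 CPM in Batf KO replicates 1 to 3, so the libraries follow their labels. Effective library sizes were 24891094 to 44728937 reads in wild type and 23675459 to 30844920 reads in Batf KO. The deposited table lists a gene only where the authors' own test of the same contrast passed a false discovery rate (FDR) of 0.05. They called 752 of 19734 genes tested (3.81%), with 384 higher in Batf KO (1.95%) and 368 lower (1.86%). Presence in the table is therefore not a finding about the 3 genes, and genes outside it have no level here. By the mouse numbers in the titles, wild type replicates 1 and 2 lie next to the Batf KO mice and replicates 3 and 4 lie further off. Over the listed genes the counts of wild type replicates 1 and 2 differed less (chi-square per degree of freedom 18.0), as did those of 3 and 4 (20.2), than those of the other wild-type pairs (32.5 to 48.5). The labels do not say what the numbers stand for, so results are also given for each pair alone.

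Bhlhe40 and Zbtb32 were lower without Batf, by 2.16-fold and 2.22-fold, and Bhlhe41 was 1.91-fold higher. The 3 repressors thus did not move one way. In the edgeR quasi-likelihood test adjusted over the 667 listed genes with a mean of at least 1 CPM, all 3 passed the threshold of 0.05, as did 100% of the genes fitted, since the table holds only genes that the authors had called on these libraries. Unlisted genes were also entered into the adjustment as if they showed no difference. Adjusted in this way over all 19734 genes tested, edgeR called 286 genes (1.45%), among them Bhlhe40 but neither Bhlhe41 nor Zbtb32. The values of the groups did not overlap for any of the 3, nor for 96.1% of the 667 genes. Group means differed at least 2-fold for Bhlhe40 and Zbtb32, and for 29% of the 752 listed genes. Each library carries its own number and was treated as 1 mouse. A lower level in bulk RNA can come from fewer cells of a type or from less RNA per cell, and the 2 cannot be told apart here.

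**Figure D1:**
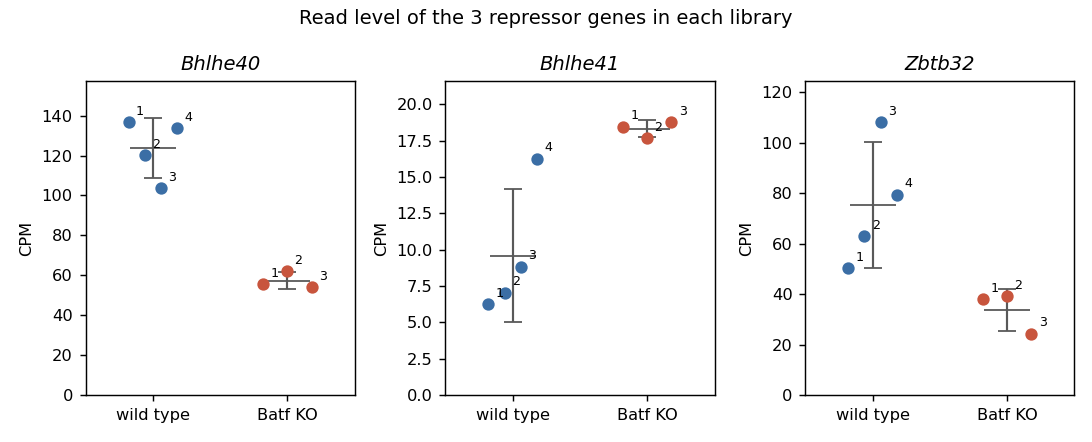
CPM of Bhlhe40, Bhlhe41 and Zbtb32 in each library of wild type (blue, n = 4) and Batf KO (red, n = 3), numbered by replicate, on linear axes from 0. Horizontal bars give means and whiskers SD. Wild type replicate 4 of Bhlhe41 (16.3 CPM) sits just under the Batf KO libraries (17.7 to 18.8 CPM), whereas Bhlhe40 leaves a wide gap between the groups.

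Bhlhe40 was the most abundant of the 3 by CPM and had the smallest standard error. It was measured at 137, 120.3, 104 and 134 CPM in wild type replicates 1 to 4 and at 55.7, 62.1 and 53.9 CPM in Batf KO replicates 1 to 3. Every Batf KO library lay below every wild-type library, and the nearest values, 62.1 and 104 CPM, were well apart. Wild type averaged 124 ± 15.1 CPM (SD, n = 4) and Batf KO 57.2 ± 4.34 CPM (SD, n = 3), which is 2.16-fold lower. The log2 change was -1.11 (SE 0.11), with an edgeR adjusted p of 5.65e-05 over the fitted genes and 0.00167 over all genes tested. The exact 2-sided permutation p of the CPM was 0.0286, the smallest that 35 arrangements of the libraries allow. In the authors' deposited table the log2 fold change is -1.11 and the FDR is 9.85e-19. The change stayed close to this value whichever wild-type pair was used, at -1.17 with replicates 1 and 2 alone and -1.05 with replicates 3 and 4 alone.

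Bhlhe41, the low-level paralog, moved the other way. It was measured at 6.25, 7.04, 8.83 and 16.3 CPM in wild type replicates 1 to 4 and at 18.5, 17.7 and 18.8 CPM in Batf KO replicates 1 to 3. The Batf KO libraries were close together, and wild type replicate 4 came nearer to them than to the other wild-type libraries. The underlying reads were few, 212 to 405 per wild-type library and 445 to 570 per Batf KO library. Batf KO averaged 18.3 ± 0.59 CPM (SD, n = 3), 1.91-fold above the wild-type mean of 9.60 ± 4.58 CPM (SD, n = 4). The log2 change was 0.94 (SE 0.30), with an edgeR adjusted p of 0.0124 over the fitted genes and 0.366 over all genes tested. The exact 2-sided permutation p was 0.0571, and the authors' deposited table gives an FDR of 0.00945. Its size depended on the wild-type mice: 1.46 with replicates 1 and 2 alone, and 0.56 with replicates 3 and 4 alone. In both cases it passed in edgeR over the fitted genes (adjusted p = 0.000219 and 0.0441), as did most of the 667. Those passing numbered 303 higher and 318 lower with replicates 1 and 2 alone, and 335 and 326 with replicates 3 and 4 alone.

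Zbtb32 was lower in Batf KO and varied most among the knockout mice of the 3 genes. It was measured at 50.3, 63.0, 108 and 79.5 CPM in wild type replicates 1 to 4 and at 38.0, 39.2 and 24.3 CPM in Batf KO replicates 1 to 3. Wild type replicate 3 was the highest library and replicate 1 the lowest of its group, while the highest Batf KO library and the lowest wild-type library were 39.2 and 50.3 CPM. Batf KO averaged 33.8 ± 8.29 CPM (SD, n = 3), 2.22-fold below the wild-type mean of 75.3 ± 25.0 CPM (SD, n = 4). The log2 change was -1.15 (SE 0.27), with an edgeR adjusted p of 0.00352 over the fitted genes and 0.104 over all genes tested. The exact 2-sided permutation p was 0.0571, and the authors' deposited table gives an FDR of 2.26e-05. As for Bhlhe41, the size differed with the wild-type pair used. The log2 change was -0.74 with replicates 1 and 2 alone and -1.47 with replicates 3 and 4 alone (edgeR adjusted p over the fitted genes, 0.0149 and 0.000402). With either pair, most of the 667 fitted genes passed as well. Whether the pairs differ beyond the spread between libraries was not tested for either gene.

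**Figure D2:**
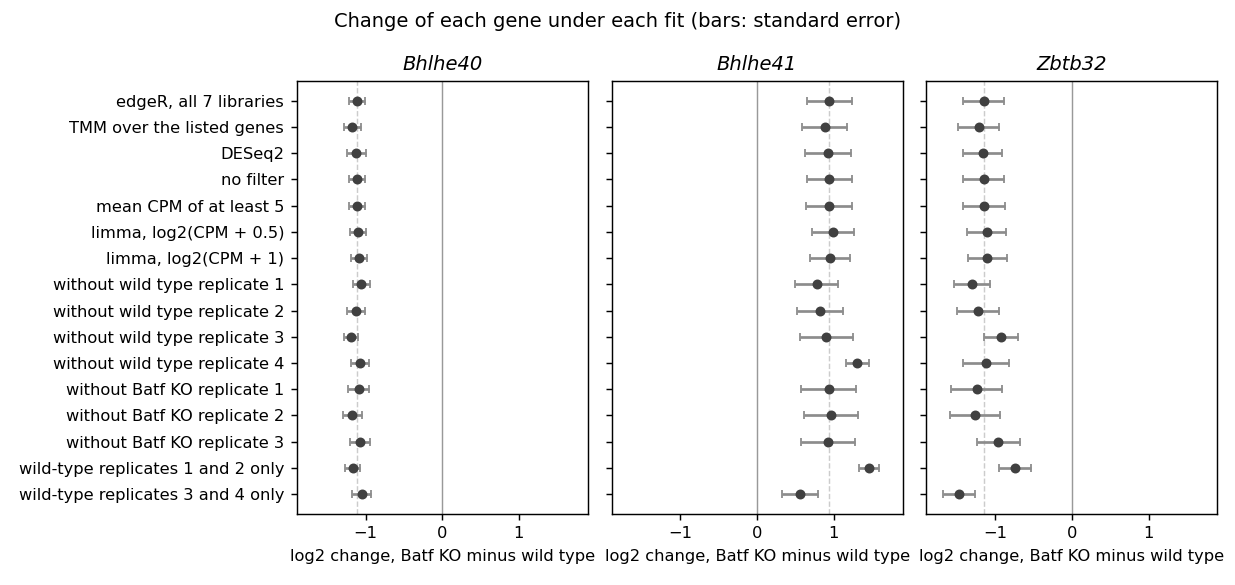
Log2 change (Batf KO minus wild type) of each gene under 16 fits, with bars for the standard error and a dashed line at the value with all 7 libraries. Bhlhe40 keeps near -1.11 throughout, while Bhlhe41 runs from 0.56 to 1.46 and Zbtb32 from -1.47 to -0.74, both ends coming from the 2 wild-type pairs.

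The spread between mice differed in size among the 3 genes, and not in the same order in both groups. Among the 4 wild-type libraries the coefficient of variation (CV, SD over mean) was 12.2% for Bhlhe40, 47.7% for Bhlhe41 and 33.3% for Zbtb32. The median over the 667 fitted genes was 10.5%, and 97.6% of these genes varied less than Bhlhe41 and 93.3% less than Zbtb32. Counting error alone would give a CV of about 5.63% for Bhlhe41 and 1.93% for Zbtb32 at these depths. In Batf KO the picture changed for Bhlhe41, whose CV was 3.20%, below the counting value of 4.49% and above only 12.4% of fitted genes. Zbtb32 still varied, with a CV of 24.5% against a median of 8.89%, and Bhlhe40 had 7.58%. With 4 and 3 libraries these CVs are themselves imprecise, and no test of the difference in spread was run.

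**Figure D3:**
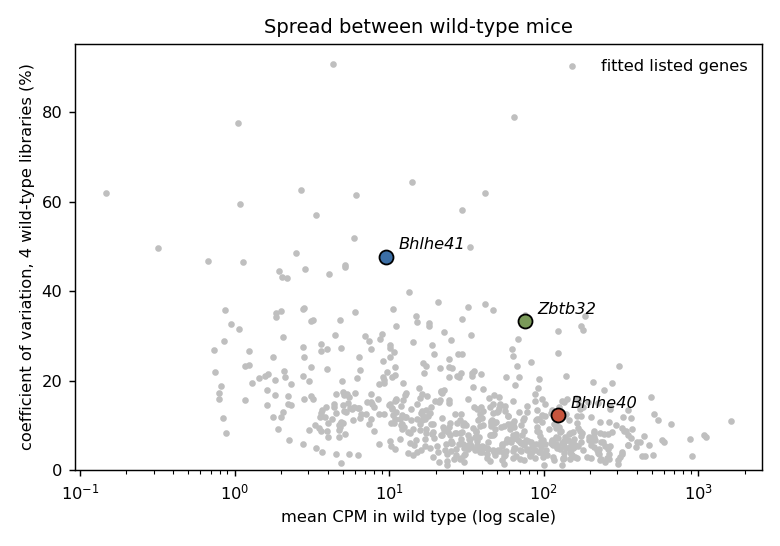
Coefficient of variation (in percent) among the 4 wild-type libraries against mean wild-type CPM (log scale) for the 667 fitted genes, in grey, with the 3 repressor genes in colour. Bhlhe41 (47.7%) and Zbtb32 (33.3%) lie near the top for their level and Bhlhe40 (12.2%) lies within the bulk.

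The paralogs Bhlhe40 and Bhlhe41 changed their balance. In wild type replicates 1 to 4 there were 21.9, 17.1, 11.8 and 8.23 Bhlhe40 reads per Bhlhe41 read. In Batf KO replicates 1 to 3 there were 3.01, 3.52 and 2.87. The groups did not overlap, and the mean log2 ratio was 3.79 ± 0.62 (SD, n = 4) in wild type and 1.64 ± 0.15 (SD, n = 3) in Batf KO, a difference of -2.14. The difference was -2.63 with wild type replicates 1 and 2 alone and -1.66 with replicates 3 and 4 alone. No p is given, because both genes were chosen with their changes known. The edgeR and permutation p-values given above for each gene carry the same limit.

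Levels of different genes were compared as CPM per kb of annotated exon (4.705 kb for Bhlhe40, 6.72 kb for Bhlhe41, 2.357 kb for Zbtb32). In wild type the level was 31.9 ± 10.6 CPM per kb (SD, n = 4) for Zbtb32, 26.3 ± 3.22 for Bhlhe40 and 1.43 ± 0.68 for Bhlhe41. The first and second of these did not differ beyond their spread, and both were far above Bhlhe41. In Batf KO the level was 14.4 ± 3.52 CPM per kb (SD, n = 3) for Zbtb32, 12.2 ± 0.92 for Bhlhe40 and 2.73 ± 0.09 for Bhlhe41, the same order. The increase of Bhlhe41 was small beside the decrease of its paralog: their summed level was 23.4 to 30.9 CPM per kb in wild type and 14.3 to 15.8 in Batf KO. Bhlhe41 made up 3.10% to 7.84% of that sum in wild type and 16.6% to 19.6% in Batf KO. Annotated exon length covers isoforms that these cells may not use, which limits this scale.

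**Figure D4:**
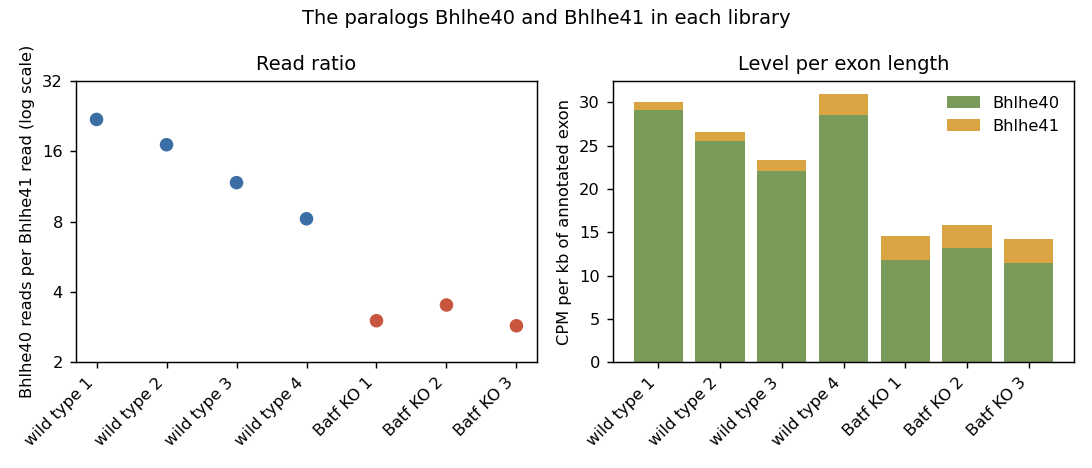
Left, Bhlhe40 reads per Bhlhe41 read in each library on a log scale, for wild type (blue) and Batf KO (red). Right, stacked bars of the level of both paralogs in CPM per kb of annotated exon. The ratio is 8.23 to 21.9 in wild type and 2.87 to 3.52 in Batf KO, and the stacked level drops although the Bhlhe41 segment widens.

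Across the 7 libraries, on log2(CPM + 0.5), Pearson's r was -0.75 between Bhlhe40 and Bhlhe41, 0.75 between Bhlhe40 and Zbtb32 and -0.52 between Bhlhe41 and Zbtb32. These values largely carry the genotype difference. With the group means removed they were 0.09, -0.41 and 0.40, so no pair tracked closely from mouse to mouse. They are descriptions over 7 libraries that share a depth and a normalization per library.

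Among the 667 fitted genes, those whose profile over the 7 libraries was most like Bhlhe40 were Stat5b (r = 0.993), which encodes a cytokine signal transducer, the prostaglandin E2 receptor gene Ptger4 (0.993) and E330009J07Rik (0.989). Pearson's r takes no account of size: Stat5b was lower by 0.32 on the log2 scale, against 1.11 for Bhlhe40. Most like Bhlhe41 were Ifnar2 (0.970), a subunit of the type I interferon receptor, the basement membrane gene Nid1 (0.962) and Fam49a (0.961). Wild type replicate 4 was the highest wild-type library for each of these genes too, at 46.6 CPM for Ifnar2 against 36.4 to 39.0 CPM in the other wild-type libraries. Most like Zbtb32 were the kinase gene Nek6 (0.986), the secretory cargo receptor gene Cnih4 (0.983) and the ribosomal S6 kinase gene Rps6ka2 (0.979). Few reads underlie Rps6ka2, 13 to 32 per Batf KO library, and Nid1, 36 to 88 per wild-type library. Nek6 repeated the order of the Zbtb32 wild-type values, at 12.7, 14.6, 25.8 and 19.0 CPM in replicates 1 to 4. Because each listed gene differs between the genotypes, high correlations are common in this table.

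With the group means removed, the genes most like Bhlhe40 were P2ry10 (r = 0.976), which encodes a lysophospholipid receptor, Cytip (0.973), a regulator of lymphocyte adhesion, and the VEGF receptor gene Flt1 (0.970). Cytip and Flt1 were higher in Batf KO (log2 change 0.46 and 1.39), the direction opposite to Bhlhe40. These correlations are the highest of 667 over 7 libraries and are given as a ranking only, and Flt1 had 17 to 63 reads per wild-type library. For Flt1 the edgeR adjusted p over the fitted genes was 0.0142, and 0.0594 without Batf KO replicate 2. For Bhlhe41 these genes were Gfpt1 (0.985), the rate-limiting enzyme of hexosamine synthesis, Fam53b (0.963) and Rbl2 (0.959), which encodes the pocket protein p130. All 3 were lower in Batf KO while Bhlhe41 was higher. For Zbtb32 they were Cnih4 (0.981), Agfg1 (0.971) and Nek6 (0.966), each lower in Batf KO as Zbtb32 was.

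The circadian clock and its PAR bZIP outputs form the textbook setting of BHLHE40 and BHLHE41. Of 23 genes of that list, 3 (13.0%) were listed by the authors, against 3.81% of all genes tested: Bhlhe40 and Nfil3 lower and Bhlhe41 higher. As 2 of these 3 are genes the account began from, the share partly restates that choice. Nfil3, a bZIP repressor that competes with PAR factors, averaged 250.3 ± 4.74 CPM (SD, n = 4) with Batf and 75.6 ± 2.83 CPM (SD, n = 3) without it, and passed over all genes tested in edgeR, as Bhlhe40 did. The median log2 change over the 667 fitted genes was 0.30. Over all genes tested, 3.81% were listed and edgeR called 1.45%, and the same values are the background for each list that follows. For a count out of genes already listed and fitted, the matching background is 286 of 667. Every list was chosen with earlier results of these data known, so a share above this background is no independent evidence. The core clock genes Clock, Arntl, Per1, Per2, Cry1 and Nr1d1 were not listed, so no level of theirs can be given.

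Of 32 other helix-loop-helix genes, 4 (12.5%) were listed. Id1, an inhibitor of E proteins, rose 1.62-fold from 5.82 ± 0.65 CPM (SD, n = 4), while its relative Id2 was 1.49-fold lower. Ahr, the aryl hydrocarbon receptor, ranged from 66.7 to 108 CPM in wild type and from 30.02 to 49.5 CPM in Batf KO. The Notch target family gene Heyl was below the CPM filter, at 15 to 25 reads per wild-type library and 25 to 46 per Batf KO library. Id1 passed over all genes tested (edgeR adjusted p = 0.0435), and Id2 (0.0759) and Ahr (0.0583) did not. The median log2 change of the 3 fitted genes was -0.58.

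Of 45 annotated genes of the BTB zinc finger family, to which Zbtb32 belongs, 6 (13.3%) were listed, 3 in each direction and Zbtb32 itself among them. Bcl6, the repressor that governs germinal centre B cells, averaged 45.9 ± 4.54 CPM (SD, n = 4) with Batf and rose to 67.8 ± 3.21 CPM (SD, n = 3) without it. Zbtb18 averaged 353 ± 47.2 CPM (SD, n = 4) with Batf and 232 ± 9.74 CPM (SD, n = 3) without it. Zbtb4 was 1.49-fold lower and Zbtb46, known from dendritic cells, was 1.44-fold higher. Bcl6 and Zbtb18 passed over all genes tested in edgeR (adjusted p = 0.0208 and 0.0281), whereas Zbtb4, Zbtb32 and Zbtb46 did not. Bcl6b was below the CPM filter, with 6 to 15 reads per wild-type library and 15 to 30 per Batf KO library. Of the 5 fitted genes the median log2 change was -0.57, and Zbtb32 had the largest change in size. Bcl6b, not fitted, has a larger log2 fold change in the authors' deposited table, 1.32 against -1.15 for Zbtb32.

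Regulators of the plasma cell fate gave 6 of 15 genes (40% listed, against 3.81% of all genes tested), with 3 higher and 3 lower and a median log2 change of -0.09. Prdm1, the BLIMP-1 gene with whose product ZBTB32 acts, was measured at 7.30, 8.84, 11.6 and 13.0 CPM in wild type replicates 1 to 4 and at 6.39, 6.75 and 5.20 CPM in Batf KO replicates 1 to 3. It was thus 1.66-fold lower, but it did not pass over all genes tested (edgeR adjusted p = 0.276), nor over the fitted genes with wild type replicates 1 and 2 alone (0.0668). Irf4 rose 2.18-fold and Spib 1.46-fold, whereas Bach2 fell 1.81-fold and the coactivator gene Pou2af1 1.70-fold. These 4 and Bcl6 passed over all genes tested in edgeR, 5 of 15 against 1.45% of all genes. The list was chosen with earlier results of these data known, so both shares may partly restate that choice. None of 15 genes of the MHC class II pathway, Ciita included, was listed, so their levels are not analysed here.

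The B1 and marginal zone list had 5 of 19 genes listed (26.3%, against 3.81% of all genes tested), 4 higher and 1 lower, with a median log2 change of 0.62. Bhlhe41 and Zbtb32 are 2 of these 5 and were members from the outset. Bhlhe41, Cd9, Plscr1 and Nfatc1 were higher and Zbtb32 was lower. Nfatc1, a calcium-regulated factor needed for B1a cells, averaged 70.7 ± 1.82 CPM (SD, n = 4) with Batf and 109 ± 8.14 CPM (SD, n = 3) without it, and the phospholipid scramblase gene Plscr1 rose 1.68-fold. Nfatc1 and Plscr1 passed over all genes tested in edgeR (adjusted p = 0.00311 and 0.0224), and the tetraspanin gene Cd9 did not (0.329). The surface marker Cd5 and the marginal zone genes Cr2 and Cd1d1 were not listed. The memory B cell list had 5 of 14 listed (35.7%, Zbtb32 included), Bcl6 higher and Zbtb32, Ccr6, Bach2 and Bcl2 lower, with a median log2 change of -0.86. Of these 5, Bcl6 and Bach2 passed over all genes tested in edgeR, as did 286 of the 667 fitted genes. The chemokine receptor gene Ccr6 was 2.12-fold lower and the survival gene Bcl2 1.54-fold lower.

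Of 13 cytokine genes tied to Bhlhe40 or Zbtb32 in lymphocytes, 4 (30.8%) were listed, 3 higher and 1 lower, with a median log2 change of 0.57. Il10, which BHLHE40 limits in T cells, was measured at 8.88, 9.20, 8.41 and 8.08 CPM in wild type replicates 1 to 4 and at 37.5, 34.1 and 20.3 CPM in Batf KO replicates 1 to 3. It rose 3.54-fold (log2 change 1.83, SE 0.19) and passed over all genes tested in edgeR (adjusted p = 0.00242). The IL-2 receptor gene Il2ra (1.37-fold) and Il1b (1.61-fold) were higher and Il6 (1.62-fold) was lower, and none of these passed over all genes tested in edgeR (adjusted p = 0.0561, 0.146 and 0.0527). Whether any of these genes moved because of Bhlhe40, Bhlhe41 or Zbtb32 was not tested. Among BATF and its relatives and partners 8 genes were fitted, with Jun, Jund, Atf3, Irf4 and Irf8 higher and Batf, Jdp2 and Bach2 lower. Of these 8, 6 passed over all genes tested in edgeR, against 286 of all 667 fitted genes. The median log2 change of the 8 was 0.55.

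**Figure D5:**
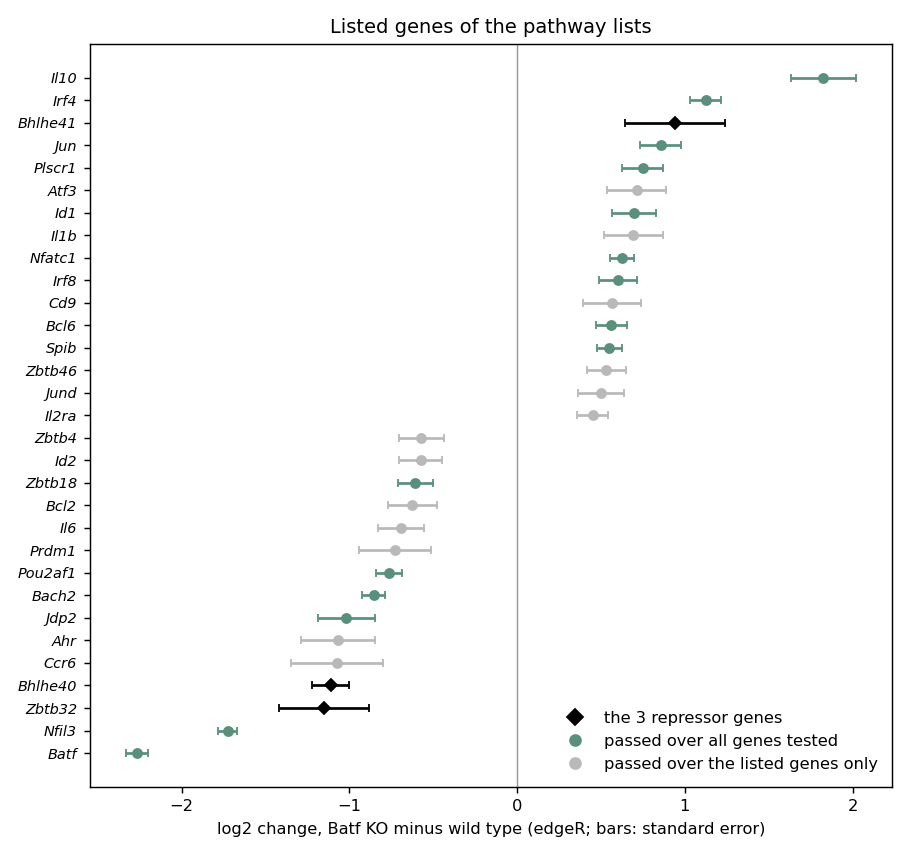
Log2 change (Batf KO minus wild type, edgeR, bars for the standard error) of the fitted listed genes in the pathway lists. Black diamonds are the 3 repressor genes, green points passed over all genes tested and grey points passed over the fitted genes only. Bhlhe40 (-1.11) and Zbtb32 (-1.15) stand near the lower end and Bhlhe41 (0.94) near the upper end, with the widest error bar of the 3 (0.30).

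Bhlhe40, Bhlhe41 and Zbtb32 are also expressed outside B cells, so markers of other spleen cells are given beside them. Of the B cell markers, 2 of 8 were listed, Ms4a1 and Ighm, and they differed in opposite directions. Ms4a1, which encodes CD20, averaged 579.6 ± 39.6 CPM (SD, n = 4) with Batf and 879 ± 40.9 CPM (SD, n = 3) without it, 1.52-fold higher (edgeR adjusted p = 0.00392 over all genes tested). Ighm, the IgM heavy chain gene, averaged 1634 ± 178 and 1202 ± 76.6 CPM (SD), 1.36-fold lower (0.0634). Their summed level, 2100 to 2453 CPM in wild type and 2032 to 2112 CPM in Batf KO, was mostly Ighm. The other 6 have no level here. Of 13 T and NK cell markers only Cd8b1 was listed, at 1.48 to 2.59 CPM in wild type and 5.24 to 7.42 CPM in Batf KO. Of 14 myeloid and dendritic markers only Zbtb46 was listed (47.4 to 65.6 against 73.6 to 89.6 CPM), of 7 erythroid and platelet markers only Pf4 (0.28 to 0.63 against 0.76 to 1.04 CPM, from 7 to 32 reads per library), and of 6 stromal markers none. These 3 single markers were higher in Batf KO. Their part in the Bhlhe40, Bhlhe41 and Zbtb32 results was not tested.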

How the data were processed

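Total RNA of 7 libraries was sequenced as paired ends. The mm10 build and the tools edgeR 3.03, TopHat2 2.0.6 and HTSeq 0.5.3p7 are listed without roles, per the submitters' processing notes. The design text mentions 2 replicates per sample without saying what they are, and each library was treated as 1 mouse. Per the file headers, the deposited table gives a read count and a CPM per gene and library. It also holds the authors' log2 fold change, log2 mean CPM, likelihood ratio (a score), p-value and FDR, per the file headers. The number of genes tested, 19734, was recovered from FDR, p-value and rank, and the highest FDR is 0.0499.

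Library sizes were recovered as count over CPM. Counts of the 667 genes whose mean reached 1 CPM entered the edgeR quasi-likelihood test (2-sided, version 4.0.16, R 4.3.3). The other 85 were not fitted, and all 3 genes described passed this filter. P-values were adjusted by Benjamini-Hochberg over the 667 genes and over all genes tested. Since the spread was estimated from selected genes, both can be too small. The edgeR step was checked on simulated counts with the same spread for every gene and most genes unchanged. That check does not cover the selection of the listed genes or their unequal spread. An SE is the log2 change over the square root of F. Alternatives used DESeq2 1.42.0, limma 3.58.1, other filters and scalings, and fewer libraries. Of 752 identifiers, 742 matched GENCODE M21.

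The members and gene lists were chosen with earlier results of these data known. Named genes are the members, Batf, every listed gene of the lists (values given where a role is described), and per member the 3 genes with the highest Pearson correlation, with and without group means.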

Additional observations from a re-analysis of the deposited data

Results flagged for a closer look

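One set of wild-type values held a library set apart from the rest by Dixon's 95% criterion. In wild type replicate 4, Nfatc1 reached 73.4 CPM, against 69.6 to 70.1 CPM in replicates 1 to 3, a gap that is small beside its difference from Batf KO (100.02 to 116 CPM). Among 56 such sets (the named genes and the paralog ratio), about 2.8 would hold such a library by chance. For Bhlhe41 the gap of wild type replicate 4 took 0.742 of the range, which did not reach the criterion. Groups of 3 were not tested.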

How the results depend on the processing

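Bhlhe40, Bhlhe41 and Zbtb32 kept their direction under each alternative run. Adjusted over all genes tested, at unchanged log2 changes of 0.94 and -1.15, Bhlhe41 (edgeR adjusted p = 0.366) and Zbtb32 (0.104) no longer passed, and the calls over all fitted genes went from 339 higher and 328 lower to 134 and 152, since more genes enter the adjustment. Under the other 15 alternatives the adjusted p ran from 1.48e-19 (DESeq2) to 0.000628 for Bhlhe40, 0.000219 to 0.0441 for Bhlhe41 and 1.2e-05 to 0.0149 for Zbtb32. Most of the fitted genes passed under each of these alternatives too. With 1 library left out the log2 change was -1.19 to -1.06 for Bhlhe40, 0.78 to 1.31 for Bhlhe41 (highest without wild type replicate 4) and -1.30 to -0.92 for Zbtb32 (smallest without wild type replicate 3), and the paralog log2 ratio differed by -2.39 to -1.92. Of 47 other fitted genes named, none reversed. Over all genes tested, 25 of the 47 no longer passed, and Flt1, Cd9, Prdm1 and Rps6ka2 each lost the call over fitted genes under 1 alternative with fewer libraries. The 18 likeness ranks held the same genes with a pseudocount of 1. No paired analysis was possible because no mouse number occurs in both genotypes. Depth limits Heyl, Bcl6b and Pf4, which rest on few reads, whereas the spread of Bhlhe41 in wild type (CV 47.7%) was well above its counting error (5.63%).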

Other observations

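Gm17055, which lies 1.1 kb from Bhlhe40, is also in the authors' deposited table and was singled out after its values were seen. It had 20, 13, 23 and 17 reads in wild type replicates 1 to 4 and 7, 5 and 5 reads in Batf KO replicates 1 to 3. The 73 wild-type and 17 Batf KO reads give a level 2.51-fold higher in wild type per library size, with an exact 95% counting interval of 1.46 to 4.53 that covers counting error only. Bhlhe40 itself differed 2.16-fold in the same direction. Gm17055 was below the CPM filter and was not fitted, and the authors' deposited table gives it an FDR of 0.0424. No other listed gene with a GENCODE position lies within 1 Mb of Bhlhe40, and 10 listed identifiers had no such position. The listed genes with a position within 1 Mb of Zbtb32 were Nfkbid (160.9 kb away), Ffar2 (219.4 kb) and Fxyd5 (433.8 kb). Their log2 fold changes in the authors' deposited table are 0.49, -0.82 and -0.68. Bcat1, 782.1 kb from Bhlhe41, has a log2 fold change of -0.63 there.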
